A study of Mus musculus with 24 samples.

Results

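Lung metastases of a mouse mammary tumor line were compared with normal lung parenchyma on a panel of mature miRNAs. The samples were chosen by their titles, which gave 4 lung metastasis samples and 2 normal lung samples of the 24 in the series. The study followed JygMC(A)-GFP/Luc mouse mammary carcinoma cells that were injected into a mammary fat pad, grew as primary tumors, which were surgically taken out, and spread to the lung on their own. Cells were taken from tissue by laser capture, and RNA was counted with the nCounter assay, in which each probe carries a barcode that is counted without amplification. The animals were female mice of the BalbC nude strain, 6 to 9 weeks old, which lack a thymus and therefore most T cells, and the tumor cells carried a fluorescent and a luciferase reporter. Lung metastasis replicates 2, 3 and 4 each carry a single animal number. The label of lung metastasis replicate 1 names 3 animals and was treated as 1 sample. Normal lung replicates 1 and 2 came from 2 animals whose numbers are also on the 2 samples of normal mammary gland (NMG). No tumor sample carries those numbers, and whether the animals that gave normal lung had received tumor cells is not given in the sources used here. The label descriptions of normal lung and NMG alone begin with "New Sample". Whether that marks another run or batch is not given, so it cannot be told apart from the tissue in any difference from normal lung. Further samples entered the shared fit, among them 12 primary tumor areas (5 carcinoma and 7 EMT-like) that carry only 8 animal labels, and each metastasis shares its animal label with at least 1 of them.

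A miRNA is a short RNA that pairs with messenger RNAs mainly through its seed, bases 2 to 8, and lowers their output, so miRNAs with the same seed form a family. Many miRNAs are strongly tied to a cell type, such as miR-126 to endothelium, miR-144 and miR-451 to red cell precursors, miR-142 to leukocytes, miR-143 and miR-145 to smooth muscle, the miR-200 family to epithelium, and miR-34b, miR-34c and miR-449 to ciliated airway cells. Normal lung parenchyma is built largely of capillaries and holds much blood, whereas a tumor nodule is composed mainly of tumor cells with some vessels and stroma of the host.

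The lanes differed greatly in depth. In the deposited data each lane has had the average of its 6 negative control probes taken off its counts, and the lanes are not brought to one depth. Summed over the 566 mouse probes, with values below 0 set to 0, they came to 113192, 62583, 99185 and 115278 in lung metastasis replicates 1 to 4, to 590022 in normal lung replicate 1 and to 2335745 in normal lung replicate 2. The detection limit of a lane, the mean plus 2 SD of its negative controls, lay at deposited values of 4, 18.2, 17.1 and 6.57 in the metastases and at 14.8 and 19.5 in normal lung. Above it were 237, 135, 166 and 226 mouse miRNAs in the metastases and 257 and 368 in normal lung. In normal lung replicate 2, 17 of 36 probes for viral, plant or worm miRNAs were above that limit too, against 0 to 5 in the other lanes compared, so values near the limit are less certain there. After scaling with factors from the trimmed mean of M-values (TMM) they are called normalized values. At a common floor, a normalized value of 34.7 that every lane can measure, the counts were 136, 135, 137 and 141 in the metastases and 158 and 161 in normal lung. Thus most of the excess of detected miRNAs in normal lung replicate 2 lay under a level that the shallowest lane could not read. The deposited values of normal lung replicate 2 were higher than those of replicate 1 by a median ratio of 3.16 over 83 miRNAs at 20 to 100, 3.19 over 80 at 100 to 1000, 3.43 over 50 at 1000 to 10000 and 3.31 over 14 at 10000 or more.

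Probes were tested if any of the 24 samples had a positive value. Of these 550, limma with Benjamini-Hochberg adjustment called 42 higher (7.64%) and 230 lower (41.8%) in lung metastasis at an adjusted p under 0.05. Many of these calls rest on values that only the deep normal lung lanes could measure. A call was therefore taken as measurable only when every sample of the higher group was above its limit and the mean of that group exceeded the highest scaled limit of the other lanes. By this rule 28 miRNAs were higher (5.09%) and 95 lower (17.3%). The groups did not overlap for 27 of the 28 and for all 95, but the selection itself favors such separation. The share of all 550 probes without overlap is not given. Among the 28 are miR-34c and miR-543, whose probe names state a share of positive control A. Both lose the higher call when that signal is subtracted. The shares of 5.09% and 17.3% are over all 550 probes, of which 132 were above the limit in none of the 6 lanes. A measurable lower call needs both normal lung samples above the limit, which held for 249 probes. A higher call needs all 4 metastases above it, which held for 128. Shares of called miRNAs in the lists that follow are better read against 95 of 249 lower and 28 of 128 higher. An exact two-sided permutation test of 4 against 2 samples has 15 splits, so its smallest p is 0.0667 and it cannot reach 0.05 for a single miRNA. The samples carry separate animal labels, that of lung metastasis replicate 1 naming 3 animals, but 2 normal lung samples give little measure of the spread in that tissue, which the fit therefore shares over all 7 groups.

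The balance of higher and lower calls depended on the scaling. Scaling by the 100 most abundant miRNAs gave 60 measurable calls higher and 34 lower, and scaling by the miRNA total gave 59 and 38. The 4 mRNA control probes gave 1 and 209, and values without scaling gave 2 and 208. TMM over the 120 miRNAs detected in all 6 lanes, chosen after seeing the data, gave 42 and 65. Over all 550 probes the log2 fold change had a median of -0.87 with TMM, -0.03 with the 100 most abundant miRNAs, -0.16 with the miRNA total, -0.45 with TMM over the detected miRNAs, -2.38 without scaling and -2.71 with the mRNA controls. Fold changes below are therefore positions relative to a median that the scaling sets. Over these 6 scalings, 34 miRNAs were measurably lower in each and 1, miR-9, was measurably higher in each.

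**Figure D1:**
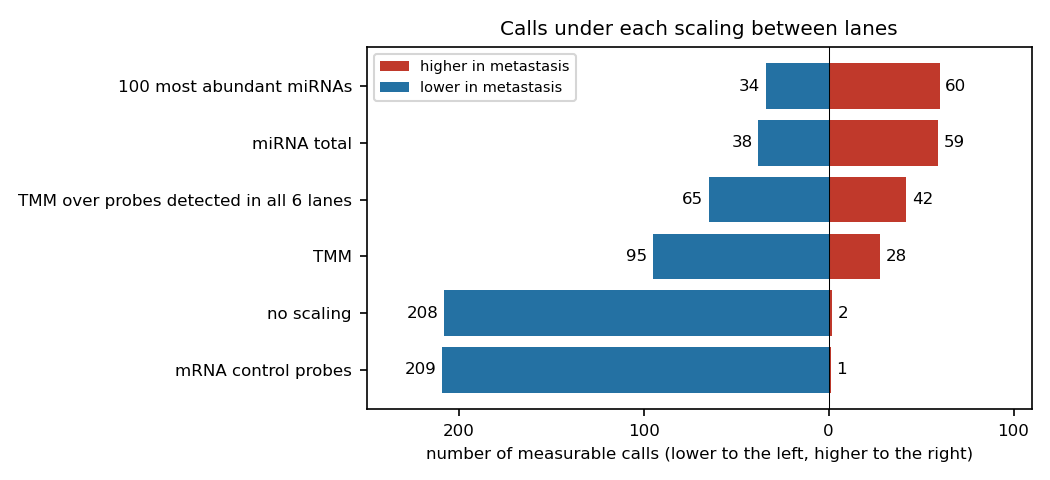
Number of measurable calls (horizontal axis, lower in lung metastasis to the left and higher to the right) under each of 6 scalings between lanes, ordered by the depth they give to the normal lung lanes. The split runs from 1 higher and 209 lower with the mRNA control probes to 60 higher and 34 lower when the 100 most abundant miRNAs set the scale.

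The clearest difference was the low level of red cell and vessel miRNAs in the metastases. The normalized value of miR-451, which is processed by Argonaute 2 and matures with red cells, was 294, 390, 438 and 342 in lung metastasis replicates 1 to 4 and 38211 and 42769 in normal lung. All 4 metastases lay far below both normal lung samples, with means of 366 ± 61.8 (SD, n = 4) and 40490 ± 3223 (SD, n = 2) (log2 fold change -6.80, standard error 0.41, limma adjusted p = 1.35e-11). As a share of the mouse miRNA total of its lane, miR-451 made up 0.201%, 0.326%, 0.352% and 0.207% in the metastases and 11.5% and 11.1% in normal lung. Its neighbor in the genome, miR-144, had values of 11.7, 13.4, 27.6 and 7.15 in the metastases, of which 2 were above the limit, and 5500 and 8392 in normal lung. With the undetected values raised to their limits, it was at least 355-fold lower in metastasis. The third member of the erythroid list, miR-486, was at 36.3, 21.0, 55.2 and 47.2 against 1100 and 683, with 3 of 4 metastases above the limit, and was at least 19.9-fold lower by the same reckoning. All 3 of the 3 erythroid probes were measurably lower, under each of the 6 scalings. The erythroid sum was 342 to 521 in the metastases and 44811 and 51844 in normal lung.

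The endothelial list holds both strands of miR-126, the miRNA of the Egfl7 gene that supports vessel integrity. The value of miR-126-3p was 2837, 2423, 754 and 2241 in the metastases and 56204 and 57913 in normal lung, where it was among the most abundant miRNAs. Lung metastasis replicate 3 was the lowest, and the groups were far apart (log2 fold change -4.95, standard error 0.39, adjusted p = 9.24e-10). For miR-126-5p the values were 231, 170, 46.4 and 162 against 5622 and 7028, again with replicate 3 lowest (log2 fold change -5.57, standard error 0.51, adjusted p = 9.43e-09). Both strands were lower under each scaling, with log2 fold changes of -3.26 and -3.88 under the 100 most abundant miRNAs, the setting that moved them nearest to 0. In share of the lane total, miR-126-3p fell from 16.9% and 15.1% in normal lung to 1.93%, 2.03%, 0.606% and 1.36% in the metastases.

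Smooth muscle, mesenchymal and striated muscle miRNAs were also lower. The value of miR-143, which with miR-145 keeps smooth muscle contractile, was 139, 143, 100 and 114 in the metastases and 2950 and 2700 in normal lung (log2 fold change -4.51, adjusted p = 0.000964). For miR-145 it was 931, 623, 572 and 821 against 9779 and 6497 (log2 fold change -3.46, adjusted p = 9.21e-08), so 2 of 2 smooth muscle probes were measurably lower. The call of miR-143 was lost with scaling by the 100 most abundant miRNAs. Of the 4 mesenchymal probes, 3 were measurably lower under each scaling, while miR-214 was not called with TMM and was measurably lower in 2 of the 6 scalings. The value of miR-199a-5p, which shares its hairpin with miR-199a-3p and is found in fibroblasts, was 201, 134, 70.3 and 124 against 1431 and 1346 (log2 fold change -3.47, adjusted p = 8.77e-07). A miRNA of the Slit genes, miR-218, was undetected in all 4 metastases, stood at 463 and 544 in normal lung and was at least 33.3-fold lower in metastasis. A fold of this kind sets the measured group against the detection limits of the other lanes, on the scale of value plus 1. Each fold given as at least, here and elsewhere, holds for TMM scaling and these lane limits alone. With the common floor, the log2 fold changes were smaller in size. They were -3.85 for miR-218, -4.41 for miR-1, -2.33 for miR-101a, -1.95 for miR-208a and -1.75 for miR-582-5p. No p-value is given with it, since values under the limit, many of them floored at 0, hold no measured spread. All 4 metastases were under the limit in 19 of the 95 lower calls. Of 7 striated and cardiac muscle probes, 4 were measurably lower, 2 of them under each scaling. The cardiac and skeletal muscle miRNA miR-1 was likewise undetected in all 4, and stood at 433 and 1257 in normal lung (at least 49.0-fold lower). The same held for miR-208a, encoded in the cardiac myosin gene Myh6, at 169 and 107 in normal lung (at least 8.99-fold lower), and for miR-208b at 96.6 and 94.8. These muscle miRNAs were thus detected in samples labelled as lung parenchyma. The rule also named miR-101a, at 163 and 187 in normal lung (at least 11.6-fold lower), and miR-582-5p, at 107 and 128 (at least 7.81-fold lower), with no metastasis above its limit for either.

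**Figure D2:**
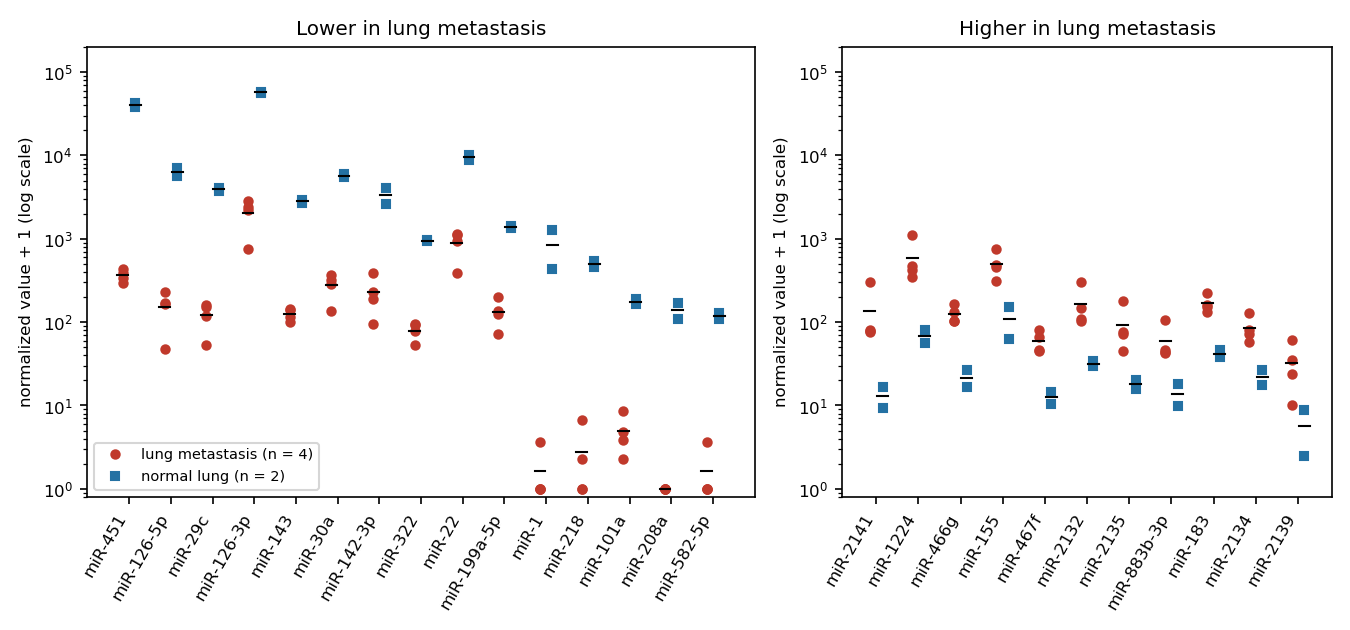
Normalized value plus 1 (vertical axis, log scale) of the miRNAs named for the size of their difference in 4 lung metastases (circles) and 2 normal lung samples (squares), with bars at the group means. The groups do not overlap for any miRNA shown, but separation was part of the rule that picked them, so it is not a result. Values of miR-451 spanned 294 to 438 in metastasis and 38211 to 42769 in normal lung. Points under the detection limit, such as those of miR-1 in metastasis, have no order among themselves.

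Leukocyte miRNAs did not move as a block. Of 7 probes, 4 were measurably lower and 2 measurably higher, and the median log2 fold change of the list was -2.20 beside -0.87 over all probes. The value of miR-142-3p, found across blood cell lineages, was 93.4, 388, 231 and 190 in the metastases and 2625 and 4097 in normal lung (log2 fold change -4.03, standard error 0.62, adjusted p = 1.53e-05). For miR-223, a miRNA of neutrophils and monocytes, it was 81.7, 51.6, 128 and 67.2 against 475 and 498 (log2 fold change -2.63, adjusted p = 0.000317). The lymphocyte miRNA miR-150 was at 174, 382, 296 and 160 against 1126 and 1056 (log2 fold change -2.20, adjusted p = 0.0018), and miR-146a, which dampens NF-kB signaling, at 258, 474, 158 and 615 against 2015 and 2177 (log2 fold change -2.66, adjusted p = 0.000168). Of these 4 lower calls only that of miR-142-3p held under each scaling. Scaled by the 100 most abundant miRNAs, the calls of miR-150 (-0.51), miR-223 (-0.95) and miR-146a (-0.97) were lost, and with the miRNA total those of miR-150 (-0.82) and miR-223 (-1.26). In contrast, miR-155, which is induced in activated lymphocytes and in many tumors, was at 455, 747, 308 and 489 in the metastases and 151 and 62.1 in normal lung (log2 fold change 2.28, standard error 0.32, adjusted p = 6.05e-06). Its deposited values, before scaling, were 351, 391, 245 and 342 against 268 and 378 and overlapped, and the mRNA controls turned its sign (-0.32). According to its probe name, miR-155 picks up 0.022 of positive control A. With that signal subtracted the values were 196, 275, 65.9 and 190 against 46.9 and 29.1 (log2 fold change 2.10, adjusted p = 0.000305). The minor strand miR-142-5p was also called higher (log2 fold change 1.62, adjusted p = 0.00208), at 53.2, 66.9, 43.9 and 50.1 against 31.6 and 8.38, and turned to -0.89 with the mRNA controls and to -0.54 without scaling. The part that fewer cells of a type, and the part that less RNA per cell, have in any of these differences cannot be told apart in RNA pooled from captured areas. Which cells the laser capture took or left out was not tested.

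The miR-30, miR-29 and miR-26 families were lower in all their probes, and the miR-15/16 family in most. All 5 of 5 miR-30 probes were measurably lower, with a median log2 fold change of -3.40, and 4 of them kept that call under each scaling. The value of miR-30a, which is high in differentiated epithelium, was 368, 287, 136 and 315 in the metastases and 5943 and 5477 in normal lung (log2 fold change -4.46, standard error 0.35, adjusted p = 1.06e-09). For miR-30e it was 37.6, 40.1, 22.6 and 38.6 against 385 and 387, and its call was lost under the 100 most abundant miRNAs. All 3 of 3 miR-29 probes, which repress collagen genes, were measurably lower, miR-29a and miR-29c under each scaling. The value of miR-29c was 117, 159, 51.5 and 152 against 4078 and 3743 (log2 fold change -5.14, standard error 0.44, adjusted p = 4.3e-09). That of miR-29a was 752, 1020, 550 and 826 against 7244 and 5961 (log2 fold change -3.09, adjusted p = 6.68e-06). Within the family the level of miR-29c was thus farther below normal lung than that of miR-29a, although their sequences are nearly the same and cross-hybridization between such probes was not tested. Of the 7 probes of the miR-15/16 family, which restrains the cell cycle, 5 were measurably lower, but only miR-322 under each scaling. The call of miR-16 was kept in 5 of the 6 scalings, that of miR-15a in 4 and those of miR-195 and miR-497 in 3. In contrast, miR-15b was not called with TMM (0.28), was measurably higher in 3 scalings and measurably lower in 2, and miR-503 gave no measurable call. The value of miR-16 was 1745, 2050, 2130 and 2299 against 13224 and 13391 (log2 fold change -2.70, adjusted p = 0.000217), and that of miR-322 was 76.5, 91.7, 51.5 and 93.0 against 963 and 932 (log2 fold change -3.62, adjusted p = 6.39e-08). Both miR-26 probes were measurably lower under each scaling, miR-26b at 157, 124, 87.9 and 106 against 1100 and 1171. Outside the lists, miR-22 was at 943, 1139, 385 and 1102 against 10112 and 8914 (log2 fold change -3.53, adjusted p = 6.6e-06).

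Mature sequences show which of these miRNAs share a seed, given here in capitals and in the 5′ to 3′ direction. They come from RefSeq (GRCm38.p6), where 17 of 20 miRNAs looked up were matched, and the strand was taken from the current name of the older panel name. The first set is the miR-29 seed, the second the miR-30 seed and the third the miR-15/16 seed, and each set holds members of that family that were measurably lower.
miR-29a: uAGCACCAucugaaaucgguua
miR-29b: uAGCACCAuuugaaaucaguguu
miR-29c: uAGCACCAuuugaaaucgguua
miR-30a: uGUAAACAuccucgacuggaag
miR-30c: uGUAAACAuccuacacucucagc
miR-30e: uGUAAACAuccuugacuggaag
miR-15a: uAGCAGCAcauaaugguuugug
miR-16: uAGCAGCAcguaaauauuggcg
miR-322: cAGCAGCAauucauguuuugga
The following differ in seed from these and from each other, except that miR-34b-5p and miR-449a of the ciliated airway list share one. They are shown because miR-126-3p, miR-144 and miR-451 mark the vessel and red cell difference and miR-9 is the miRNA that was higher under every scaling.
miR-126-3p: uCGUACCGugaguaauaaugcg
miR-144: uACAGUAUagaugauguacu
miR-451: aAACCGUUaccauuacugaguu
miR-34b-5p: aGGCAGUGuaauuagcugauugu
miR-449a: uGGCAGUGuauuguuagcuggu
miR-9: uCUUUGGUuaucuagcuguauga

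Epithelial miRNAs, which both tumor and lung epithelium express, were not called as a group under TMM. None of the 5 miR-200 probes passed the test in limma under TMM, where 42 and 230 probes did and 304 had an unadjusted p under 0.05. The median log2 fold change of the family was -0.63, and its sign turned to 1.05 with the 100 most abundant miRNAs, 0.74 with the miRNA total and 0.06 with TMM over the detected miRNAs. The median was -3.24 with the mRNA controls and -2.88 without scaling, and in both settings miR-200a, miR-200b and miR-141 were measurably lower. The value of miR-200c, which represses the transcription factors Zeb1 and Zeb2, was 1298, 667, 579 and 753 in the metastases and 964 and 535 in normal lung, with overlap. For miR-200a, miR-200b and miR-141 all metastases lay below normal lung, though none of them was called under TMM. The share of all tested probes that separate in this way is not given, so the separation is not read as a result about the family. The value of miR-141 was 204, 72.6, 64.0 and 71.5 against 481 and 474 (log2 fold change -2.38, adjusted p = 0.0821). For miR-200a it was 374, 296, 153 and 172 against 994 and 1035 (log2 fold change -2.12, standard error 1.49, adjusted p = 0.255). The primary tumors, which share the fit and its spread, ranged from 0 to 468 for miR-200a. The normal lung samples differed from each other in squamous epithelial miRNAs. The value of miR-205 was 52.6 in normal lung replicate 1 and 832 in replicate 2, a ratio of 15.8, and that of miR-203 was 100 and 690, a ratio of 6.89. These were the largest 2 ratios of replicate 2 over replicate 1 among 167 miRNAs compared, of which 150 were within 2-fold. In the metastases miR-205, a basal cell miRNA, was at 23.3, 30.6, 45.2 and 18.6, with 3 of 4 above the limit, so the distance to normal lung replicate 1 is small and that to replicate 2 large, and its call was lost under the 100 most abundant miRNAs and the miRNA total. Of the 5 epithelial probes outside the miR-200 family, miR-205 was measurably lower and miR-183 measurably higher, with a median of 0.30 that turned to -2.31 with the mRNA controls and -1.95 without scaling.

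The ciliated airway list gave opposite readings. No metastasis had detectable miR-34b-5p, which stood at 124 and 63.9 in normal lung, a measurable call (at least 5.98-fold lower). The value of miR-449a was 3.89, 7.64, 2.51 and 22.9 in the metastases, 1 of them above the limit, and 91.0 and 54.9 in normal lung (at least 3.86-fold lower with undetected values raised to their limits). Its call was kept in 3 of the 6 scalings and that of miR-34b-5p in 4. In contrast, miR-34c, from the same transcript as miR-34b, read 1461, 2050, 1190 and 1522 against 1071 and 475, a measurable call in the higher direction (log2 fold change 1.10, adjusted p = 0.00929). The probe name of miR-34c states a share of 0.124 of positive control A. With that signal subtracted, miR-34c was at 0 in all 4 metastases and at 479 and 288 in normal lung, so the direction turned to the one of miR-34b and miR-449a. The direction of miR-34c also turned without scaling (-1.15) and with the mRNA controls (-1.51). Of the 6 probes of the list, 3 were measurably lower.

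**Figure D3:**
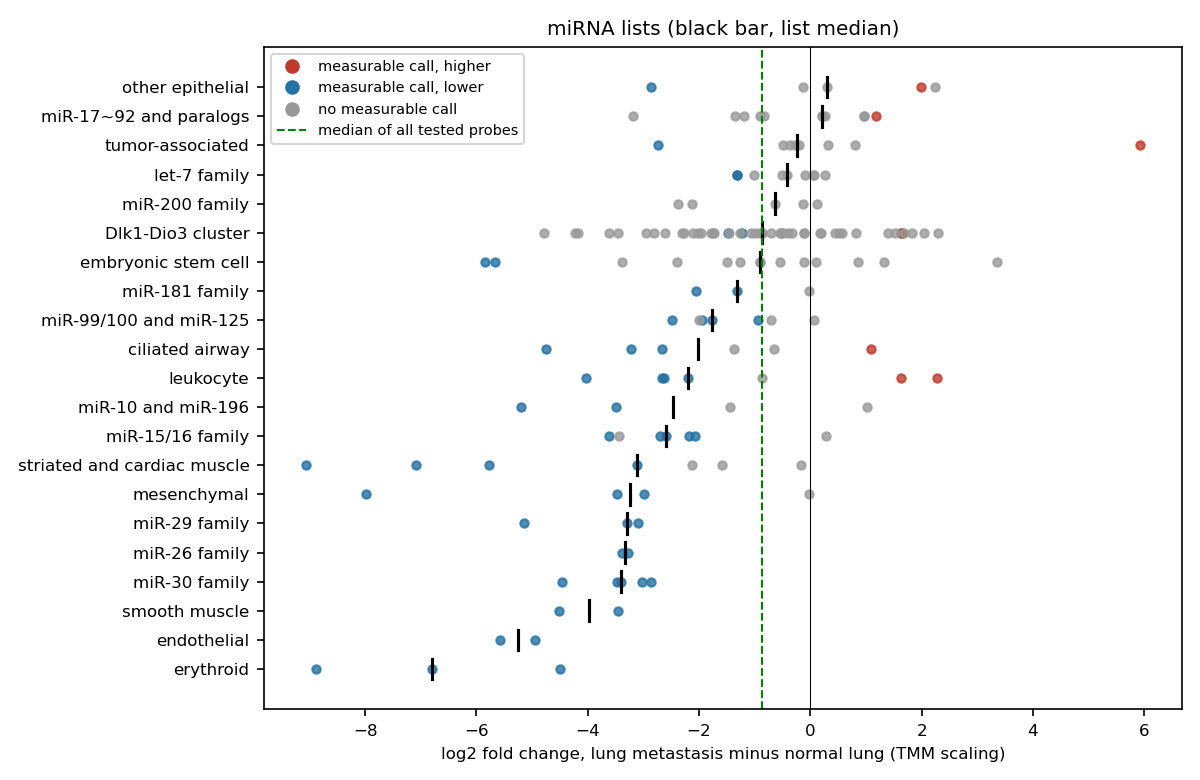
Log2 fold change of lung metastasis over normal lung (horizontal axis, TMM scaling) of each probe in 21 lists of miRNAs, colored by measurable call, with the list median as a black bar and the median of all tested probes as a dashed line. The erythroid, endothelial and smooth muscle medians of -6.80, -5.26 and -3.99 lie farthest to the left of the overall median of -0.87, and stay negative under each of the 6 scalings, while single points with undetected samples rest on floored values.

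Among the miRNAs higher in metastasis, miR-9 stood apart. Its value was 743, 589, 785 and 469 in the metastases and 3.96 and 20.9 in normal lung, where 1 of 2 samples was above the limit. This miRNA is best known from neural progenitors and targets E-cadherin in breast tumor cells. The authors reported miR-9 as raised in both carcinoma and EMT-like primary areas against NMG, so a high level was not particular to the metastases. All 4 metastases were far above both normal lung samples, at least 44.4-fold with the undetected value raised to its limit. It was the measurable call in the higher direction among the 8 tumor-associated probes, of which miR-222 was measurably lower, a call kept in 3 of the 6 scalings. The oncogenic miR-21 was at 1677, 2926, 1000 and 2733 against 2002 and 2415, with overlap and no call under TMM.

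The calls of the other higher miRNAs depended on the scaling. The value of miR-1224, a mirtron, was 1114, 470, 419 and 346 in the metastases and 79.7 and 55.2 in normal lung (log2 fold change 2.97, standard error 0.88, adjusted p = 0.00855). The value of miR-183, of a sensory organ and epithelial cluster, was 223, 151, 132 and 160 against 36.7 and 44.7 (log2 fold change 1.98, adjusted p = 0.0102). For miR-466g, of a large rodent repeat family in Sfmbt2, it was 132, 164, 103 and 102 against 25.4 and 15.8 (log2 fold change 2.56, adjusted p = 4.41e-07), and miR-467f of the same family was at 80.4, 45.9, 65.3 and 44.4 against 13.6 and 9.37. Others among the 10 largest differences in this direction with all 6 samples above their limits were miR-2141, miR-2132, miR-2135, miR-2134 and miR-883b-3p, with normalized means of 134, 163, 92.1, 84.0 and 58.8 in the metastases and 12.1, 30.7, 16.9, 20.9 and 12.9 in normal lung. For miR-2139, both normal lung samples were under the limit and the metastases were at 9.08, 59.2, 22.6 and 34.3, at least 4.26-fold higher. Lung metastasis replicate 1 had the highest value for miR-1224, miR-2141, miR-2132, miR-2135 and miR-2134. The abundant probe for miR-720, a tRNA fragment, took 26.7%, 23.9%, 26.2% and 32.6% of the lane total in the metastases and 5.88% and 16.4% in normal lung, but its normalized values of 19617 and 63104 in normal lung enclosed those of the metastases and it was not called. RNA quality was not tested. As deposited, miR-1224 was at 859, 246, 334 and 242 in the metastases and 141 and 336 in normal lung, and miR-183 at 172, 79, 105 and 112 against 65 and 272, so for these the groups overlapped before scaling. The difference in depth moves with these calls, and its part in them was not tested further than by the 6 scalings. With the mRNA controls the sign turned for miR-155, miR-467f, miR-2132, miR-2135, miR-883b-3p, miR-183 and miR-2134, and without scaling for miR-883b-3p, miR-183 and miR-2134. The calls of miR-1224 (adjusted p = 0.126), miR-183 (0.0713), miR-2141, miR-2132, miR-2135 and miR-2139 were lost without normal lung replicate 2, and those of miR-183 (0.0832), miR-2132, miR-2135 and miR-2134 without replicate 1, the lone sample being taken to have the spread of other groups. Without replicate 2 the log2 fold changes of miR-1224, miR-183, miR-2141, miR-2132 and miR-2135 stayed above 2, and that of miR-2139 was 1.58. Without replicate 1 those of miR-183, miR-2132, miR-2135 and miR-2134 were 1.85, 2.33, 2.02 and 1.62. With log2 fold changes of 1.62, 1.75, 1.86, 1.57 and 2.50, the calls of miR-183 (adjusted p = 0.166), miR-2135, miR-883b-3p, miR-2134 and miR-2139 ended under a higher background. That of miR-2135 was also lost with the common floor and without lung metastasis replicate 1, and that of miR-2139 with only the groups compared.

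The miR-17~92 cluster and its paralogs, which promote proliferation, showed 1 measurable call among 11 probes with TMM, and miR-19a, miR-93, miR-25 and the probe for miR-20a and miR-20b were measurably higher in 3 of the other scalings. In 2 scalings miR-19a, miR-25, miR-19b, miR-92a and miR-106b were measurably lower. The call with TMM was that of the probe shared by miR-106a and miR-17, at 1991, 1299, 1967 and 1459 in the metastases and 691 and 764 in normal lung (log2 fold change 1.18, standard error 0.48, adjusted p = 0.0449, turning to -1.43 with the mRNA controls and -1.07 without scaling). The list median was 0.21, rose to 1.59 with the miRNA total and 1.90 with the 100 most abundant miRNAs, and turned to -2.03 without scaling and -2.40 with the mRNA controls. In the let-7 family, a set of abundant differentiation miRNAs, 2 of 9 probes were measurably lower, let-7g at 3378, 2536, 3368 and 2720 against 6979 and 7858 and let-7i at 2325, 1473, 4057 and 2082 against 5410 and 6238. Both signs turned under the 100 most abundant miRNAs (0.37 and 0.36) and the miRNA total (0.06 and 0.05), as did that of the family median, which was -0.42 under TMM, 1.27 and 0.95 under those settings and 0.27 with TMM over the detected miRNAs. The most abundant member, let-7c, was at 10275, 6734, 8686 and 11787 against 10261 and 9323 with no call under TMM. With let-7b, let-7e and miR-98 it was measurably higher in 3 scalings and measurably lower in 2, so the direction of these members is set by the scaling. Of the remaining lists, measurably lower probes numbered 2 of 3 in the miR-181 family (median -1.32, turning to 0.03 with the miRNA total and 0.33 with the 100 most abundant miRNAs), 4 of 7 for miR-99/100 and miR-125, 2 of 4 for miR-10 and miR-196, 2 of 47 tested of the imprinted Dlk1-Dio3 cluster (median -0.87, turning to 0.10 with the 100 most abundant miRNAs) and 2 of 14 of the embryonic stem cell miRNAs. Of these lower calls only that of miR-10a held under each scaling, and the others were kept in 3 or 4 of the 6. The Dlk1-Dio3 cluster also held 2 that were measurably higher, miR-376a and miR-543. The probe name of miR-543 states a share of positive control A. With that signal subtracted its sign turned (log2 fold change -2.10) and it was not called (adjusted p = 0.287).

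The difference from the organ of growth was then compared between sites, as lung metastasis minus normal lung against primary tumors minus NMG. In this interaction 5 probes were positive (0.909%) and 55 negative (10%) at an adjusted p under 0.05 in limma. Where all samples of the 4 groups were above their limits, which held for 110 probes, 2 calls were positive and 15 negative. The value of miR-23b, a member of a cluster with miR-27b and miR-24, was 641, 558, 441 and 594 in lung metastasis and 2339 and 1886 in normal lung, while primary tumor areas ranged from 681 to 1759 with a median of 1042 and NMG was at 359 and 546. With TMM it was thus below its organ in the lung and above its organ in the mammary gland (interaction -3.13, standard error 0.51, adjusted p = 0.000163). The lung side alone was not called with the 100 most abundant miRNAs (-0.24) or the miRNA total (-0.55). Without scaling the lung difference (-4.17) exceeded the interaction (-3.99) in size, so primary tumors did not lie above NMG there. With the mRNA controls the lung difference and the interaction were close (-4.53 and -4.78). For miR-24 of the same cluster the metastases were at 200, 180, 187 and 270 against 735 and 569. The primary tumors were at 240 to 477 (median 314) and NMG at 126 and 188 (interaction -2.72, adjusted p = 0.00535). The lung side of miR-24 turned to 0.039 with the 100 most abundant miRNAs and was not called with the miRNA total (-0.27). For miR-146a the primary tumors ranged from 267 to 1213 with a median of 609 and NMG was at 579 and 433, with an interaction of -2.85 (standard error 0.66, adjusted p = 0.00535). On the positive side, miR-150 in primary tumors was at 14.7 to 67.9 (median 42.4) against 2018 and 675 in NMG, an interaction of 2.73 (adjusted p = 0.0118), since the metastases were less far below their organ. The value of miR-378, which is encoded in the Ppargc1b gene, was 93.4, 68.8, 90.4 and 75.8 in the metastases and 165 and 320 in normal lung. It was 60.2 to 123 (median 87.6) in primary tumors and 815 and 622 in NMG (interaction 1.55, adjusted p = 0.0394). The lung side of miR-378 turned to 0.19 with the 100 most abundant miRNAs and was not called with the miRNA total (-0.12). The interactions of miR-23b and miR-146a were called under all 20 alternatives that could change them, and that of miR-24 under 19. That of miR-150 was called under 17, and was lost with the mRNA controls (1.08, adjusted p = 0.325), without scaling (adjusted p = 0.0975) and without normal lung replicate 2 (adjusted p = 0.0502). That of miR-378 was called under 11 (adjusted p from 0.000296 to 0.947) and turned to -0.09 with the mRNA controls.

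Finally, miRNAs that set normal lung apart from NMG were followed in the metastases. There were 30 with a normalized mean in normal lung at least 4 times that in NMG (or its detection limit, where higher) and both lung samples above the limit, led in level by miR-126-3p and miR-451. Against the primary tumors, 1 of these 30 was called higher in lung metastasis and 0 lower with limma, where 3 (0.545%) and 16 (2.91%) of all 550 probes were called. The called one was miR-451, at 142 ± 57.3 in the 12 primary tumor areas, some of which share an animal, and 366 ± 61.8 in the 4 metastases (mean ± SD) (log2 fold change 1.46, standard error 0.28, adjusted p = 0.00233). This call was lost with the mRNA controls, where none of the 30 was called. The lung-high miR-126-3p was at 2064 ± 908 in metastasis and 1799 ± 440 in primary tumors (log2 fold change 0.12, adjusted p = 0.985), and miR-30a at 276 ± 99.8 and 238 ± 62.9 (0.15, adjusted p = 0.972). Of the 30, 10 were above the limit in all 4 metastases, where 128 of all 550 probes were, and 10 in all 12 primary tumor areas. The presence of lung tissue in the captured metastases was not tested.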

How the data were processed

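The authors deposited counts from which the negative control average of the lane had been subtracted, and their notes name Partek software without a version. How lanes should be scaled for this assay is not given in the sources used here. TMM factors (trims of 30% and 5%) were computed on values floored at 0, and log2(value + 1) was fitted with limma 3.58.1 with trend in R 4.3.3, all 24 samples in 7 groups, with Benjamini-Hochberg adjustment over 550 of 566 mouse probes. P-values measure a spread between samples that is shared over all 7 groups, not that of the metastases and normal lung alone. The 12 primary tumor areas, with 8 animal labels, entered it as separate samples. Python 3.11.15, numpy 2.4.6, pandas 2.3.3 and matplotlib 3.10.9 made figures and sequence tables. The members and lists were chosen with earlier results of these data known. Named miRNAs are the 10 largest measurable log2 fold changes per direction with all 6 samples above their limits and no overlap, the 5 largest bounded ones per direction, list members, and up to 3 interactions per direction. Alternatives changed the scaling, floor, pseudocount, filter, background, fit, blocks, probes and samples. TMM over detected probes, and a detection limit from viral and other probes, were added after seeing the data. The 33 viral and 3 plant or worm probes were left out of the main test.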

Additional observations from a re-analysis of the deposited data

Results flagged for a closer look

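Among 26 named miRNAs tested for a single distant sample, 2 were picked out by the gap to the nearest sample, relative to the log2 range of the 4 metastases, where about 1 in 20 groups would be by chance. For miR-2141 it was 0.956, from lung metastasis replicate 1 at 303.5, and for miR-883b-3p it was 0.893, from replicate 2 at 105.1. The difference from the normal organ differed between lung and mammary gland for miR-150 (2.725), miR-378 (1.551), miR-23b (-3.130), miR-146a (-2.853) and miR-24 (-2.721), as log2 interactions called in limma. Probes for viral, plant and worm miRNAs, not used in the main test, had a mean deposited value of 23.17 in normal lung replicate 2, where 17 were above the limit. The causes were not tested.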

How the results depend on the processing

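Against 28 higher, 95 lower, 60 interaction calls and 1 lung-high call, the 100 most abundant miRNAs gave 60, 34, 35 and 2, the miRNA total 59, 38, 37 and 2, the mRNA controls 1, 209, 103 and 0, no scaling 2, 208, 84 and 3, and the higher background 13, 152, 138 and 3. The filter of 20 gave 35 interaction and 3 lung-high calls. Lung-high calls numbered 2 with the common floor, with pseudocount 10, with only the groups compared and with TMM over detected probes, which was chosen after seeing the data. Leave-one-out ranges were 14 to 33 higher, 69 to 106 lower, 50 to 114 interaction and 1 to 2 lung-high calls. With 1 normal lung sample left out, the lone sample is assumed to have the spread of other groups.

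Among miRNAs named for a large difference or interaction, log2 fold changes turned with the 100 most abundant miRNAs for miR-378 (0.19) and miR-24 (0.039). With the mRNA controls they turned for miR-155 (-0.32), miR-467f (-0.26), miR-2132 (-0.34), miR-2135 (-0.34), miR-883b-3p (-0.46), miR-183 (-0.60) and miR-2134 (-0.63). Without scaling they turned for miR-883b-3p (-0.11), miR-183 (-0.24) and miR-2134 (-0.28). The calls of miR-23b against normal lung (-0.24 and -0.55) were lost with the 100 most abundant miRNAs and the miRNA total. The cause was not tested.

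A replicate block gave 27 higher, 88 lower, 47 interaction and 1 lung-high call. Between lung metastasis and normal lung, numbers 1 and 2 name different animals, so nothing was paired. Log ratios within them correlated at r = -0.0643 and -0.243 over 120 probes. With 2 normal lung samples the crossed pairs give the same values with the opposite sign, so these correlations cannot decide on pairing. An animal block gave 28, 95, 60 and 1.

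The limits are the 2 normal lung samples of unequal depth, the scaling, and the "New Sample" wording that only normal-tissue labels carry. Whether it marks another run or batch is not given. Every difference from normal lung carries it, so label and group cannot be told apart.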
